A study of Drosophila melanogaster with 2 samples.

Results

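The genes nearest the telomeres of 4 chromosome arms were examined in a profile of dBigH1, a variant of linker histone H1 that Drosophila melanogaster uses in its germline, in whole testes. A gene was taken as a tip gene when it ended at or below position 500000 on 2L, 3L or X, or started at or above 27400000 on 3R (build dm3). This rule uses position alone and found 234 of the 15421 listed genes, with 76 on 2L, 63 on 3L, 50 on 3R and 45 on X. Chromatin of adult w1118 testes was precipitated with an anti-dBigH1 antibody and set against input DNA of the same stock, age and tissue, taken with no antibody. Each had 1 library. Testes were pooled, 1000 to a pool, after accessory glands were removed by hand, and hold somatic as well as germline cells. Libraries were amplified with 18 PCR cycles, and no molecular identifiers are described. The comparison asked how much dBigH1 signal the tip genes carried relative to their DNA content. With 1 library each, no difference has a replicate check, no test between groups was possible, and all values describe these 2 libraries. A DNA profile holds no expression markers, so the labelled tissue was not checked.

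Fly telomeres are maintained by retrotransposons that insert at chromosome ends, in place of the short repeats added by telomerase in most animals. Arrays of subtelomeric repeats lie inward of them, and transgenes inserted there are silenced, an effect known as telomeric position effect. Protein-coding genes begin close to these arrays. Linker histones bind nucleosomes where DNA enters and leaves, and compact chromatin. The retrotransposons and subtelomeric repeats were not analysed here, so the values below concern the genes next to them.

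The dBigH1 library held 2864636 reads and the input library 12747726. The median tip gene had 25 dBigH1 reads against 251 input reads, and the ranges were 1 to 2342 and 6 to 13346. Fewer than 10 dBigH1 reads were counted in 48 of the 234 tip genes, so for those only large differences were detectable. Every value named a read ratio is the log2 ratio of dBigH1 reads to input reads, scaled to library totals and set to 0 at the median of all listed genes. The 95% interval beside it was derived from the exact binomial (Clopper-Pearson) limits of a gene's dBigH1 reads among its reads of both libraries, and covers counting error only. RPKM divides a gene's reads by its length in kb and by the library total. Of the tip genes, 130 overlap another listed gene. The counting rule was not stated, and counts of nested genes below are treated as part of the counts of the gene around them, so overlapping genes are not independent and sums count shared reads more than once.

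Tip genes of the X chromosome stood above the rest of their arm, while those of 2L, 3L and 3R stood slightly below theirs. The median read ratio was 0.22 in the X tip and -0.14 over the 2272 genes elsewhere on X. In the 2L tip it was -0.08, against 0.08 elsewhere on 2L. The 3L tip had a median of -0.08, against 0.03 elsewhere on 3L, and the 3R tip -0.20, against -0.03 elsewhere on 3R. These shifts are smaller than the spread among genes, whose interquartile range in the X tip was -0.14 to 0.45.

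**Figure D1:**
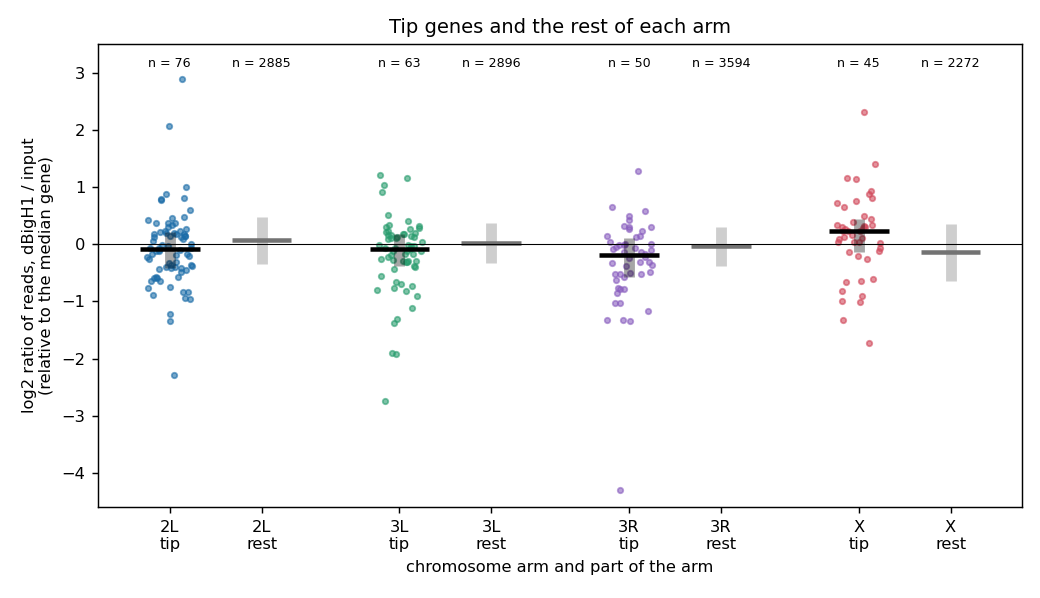
Read ratio (log2, dBigH1 over input, relative to the median gene) of every tip gene as points, with the median (line) and interquartile range (shaded bar) of the tip genes and, to the right of each, of the other genes of the same arm. The X tip median of 0.22 lies above that of the rest of X, -0.14, and the medians of the 3 autosomal tips lie below those of their arms.

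Since wide genes tend to have higher ratios in these libraries, each tip gene was also set against genes of its own arm in the same of 10 width classes. The median difference was 0.22 in the X tip, with 30 of 45 genes positive (interquartile range -0.19 to 0.64). It was -0.20 in the 2L tip, with 28 of 76 genes positive (-0.40 to 0.24). In the 3L tip it was -0.16, with 23 of 63 positive (-0.52 to 0.13), and in the 3R tip -0.18, with 18 of 50 positive (-0.50 to 0.11). The direction depended on how far in the tip was drawn. With a limit of 250 kb the median difference became 0.061 on 2L (33 genes) and 0.17 on 3R (6 genes), and with 1 Mb it became -0.15 on X (101 genes). It also became -0.20 on X among the 12 tip genes with at least 10 dBigH1 reads that overlap no other gene. Among all 31 X tip genes with at least 10 dBigH1 reads it was 0.09.

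Of the tip genes, 24 (10.3%) exceeded the median gene by 1.5-fold or more, against 16.2% of all listed genes. A ratio 1.5-fold or more below the median gene was found for 48 (20.5%), against 17.3% of all genes. The X tip held 10 of the 24 higher genes, 22.2% of its genes against 15.9% elsewhere on X. Of its 45 genes 9 were among the lower ones, against 27.7% elsewhere on X. In the 2L tip 8 genes were higher, 10.5% against 19.8% elsewhere on the arm, and 14 lower, 18.4% against 15.3%. On 3L there were 4 higher genes, 6.35% against 15.0%, and 13 lower, 20.6% against 15.0%. The 3R tip had 2 higher genes, 4.00% against 10.7%, and 12 lower, 24.0% against 15.2%. The 95% interval lay wholly above the median gene for 29 tip genes (12.4%), against 17.9% of all genes. For another 29 (12.4%) it lay wholly below, against 9.41% of all genes. By the 1.5-fold count, the shares of higher genes in the 3 autosomal tips were thus below those of their arms, and that of the X tip above. By the interval the X tip had smaller shares than its arm on both sides. Wholly above the median gene were 6 genes (13.3%), against 16.4% elsewhere on X, and wholly below it 4 (8.89%), against 13.2%. In the 3 autosomal tips the share wholly above was 12.2%, against 17.6% elsewhere on those arms. The share wholly below was 13.2% there, against 8.69%.

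Among X tip genes with at least 10 dBigH1 reads, the highest ratios were those of the long genes CG3777 and Appl. Next came sc, nested in CG32816, at 0.94 and CG13375, nested in CG3777, at 0.88. Both thus lie within long genes, and the interval of sc spans the median gene. CG3777 (FBgn0024989, chromosome X, 173736 to 244237) had 1106 dBigH1 reads against 3734 input reads, and an RPKM of 5.48 in dBigH1 against 4.15 in input. Its read ratio of 1.40 was 2.64-fold that of the median gene (95% interval 2.47 to 2.83). Among all 219 listed genes of 60 kb or more it ranked 23. Appl (FBgn0000108, 424503 to 473077), the fly homologue of the amyloid precursor protein and a marker of neurons, had 662 dBigH1 reads against 2690 input reads, with an RPKM of 4.76 against 4.34. Its read ratio was 1.14 (1.01 to 1.26). Both were among the 10 tip genes whose RPKM was higher in dBigH1 than in input, a count that was not made over all listed genes.

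The widest tip gene, CG32816 (FBgn0052816, X, 210609 to 364670), had 1561 dBigH1 reads against 7966 input reads and a read ratio of 0.81 (0.73 to 0.89). It overlaps CG3777, so the values of both are not independent, and it spans yellow and the achaete-scute complex. tyn (trynity), which encodes a protein with a zona pellucida domain, had 185 dBigH1 reads against 979 and a ratio of 0.75 (0.52 to 0.98). For comparison, genes of 60 kb or more outside the tips had a median of 0.63, so a high ratio was common to long genes. The 10 X tip genes over 10 kb had a median of 0.31, against 0.41 for such genes elsewhere on X. Among genes of 10 kb or less the X tip stood further apart, with a median of 0.11 against -0.28 elsewhere on X. The 24 X tip genes of 2 to 20 kb had a median of 0.04, against -0.17 for the other 1070 X genes of that width.

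Summed over genes, the X tip had 4694 dBigH1 reads against 25434 input reads. Its summed ratio was 0.72 (0.68 to 0.77), against 0.49 (0.48 to 0.49) for the rest of X. CG32816 alone gave 33.3% of these dBigH1 reads and 31.3% of the input reads. Summed genes of 10 kb or less in the X tip were at -0.01 (-0.13 to 0.11), against -0.06 (-0.08 to -0.04) elsewhere on X, intervals that overlap. These sums count reads of overlapping genes more than once, such as CG3777 and CG32816, and the intervals do not allow for that. Overlap was more frequent in the X tip, 64.4% of genes against 38.5% elsewhere on X. As summed here, the excess of the X tip lay in its long genes. The median over its short genes also stood above that of other short X genes.

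The achaete-scute complex encodes the proneural transcription factors that commit ectodermal cells to a neural fate, and lies next to yellow, a gene of cuticle pigmentation. All 7 genes of this list were in the X tip. The read ratio was 0.94 for sc (12 dBigH1 reads against 56 input reads, interval -0.10 to 1.85), 0.24 for l(1)sc (7 against 53, -1.14 to 1.38) and 0.34 for ase (19 against 134, -0.44 to 1.04). achaete itself, ac, had 3 dBigH1 reads against 42 and a ratio of -0.65. Every interval spans the median gene, so no single gene of the complex could be placed above or below it at this depth. yellow, y, was at 0.09 on 25 reads against 209 (-0.57 to 0.70). Cyp4g1, a cytochrome P450 of cuticular hydrocarbon synthesis, was at 0.66 on 21 against 119 (-0.09 to 1.33), and the protease-like gene pcl at 0.50 on 9 against 57 (-0.70 to 1.52). The list median was 0.34, and 6 of the 7 genes exceeded the median gene. Of these sc and Cyp4g1 did so by 1.5-fold or more, while ac was 1.5-fold or more below it, but above 0 on the authors' MAnorm score (0.43). Taken as 1 block, the 9 listed genes nested in CG32816, these 7 among them, had 123 dBigH1 reads against 883 input reads and a ratio of 0.31 (0.03 to 0.59). The remainder of CG32816 was higher, at 0.86 on 1438 against 7083 reads (0.78 to 0.94). That remainder includes the stretch that overlaps CG3777. Within CG32816 the ratio was thus lower over the nested genes than outside them.

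In CG3777 the 3 nested genes together were at 0.71 (0.37 to 1.03) and the rest of the gene at 1.49 (1.38 to 1.59). Of 7 X tip genes with nested genes, 5 had the lower ratio over the nested part, and the intervals of nested part and rest were apart in CG3777 and CG32816, which overlap each other. The opposite order was found in arg, with its nested gene elav at 0.26 and the rest at -0.24, and in FBgn0264507, with CG13376 at 0.33 and the rest at -0.008, where the intervals overlap. Over the 4 tips the nested part was lower in 18 of 27 such genes, and the intervals were apart in 3 of these 18. Nested genes are narrower than the genes around them, and nested part and rest were not matched for width. The same share was not computed over all listed genes. Among the nested genes CG13375 was at 0.88 on 76 reads against 370 (0.50 to 1.23), and the odorant receptor gene Or1a at -0.14 on 6 against 59 (-1.64 to 1.07). The stretch from ewg to Cyp4g1, 200.8 kb holding 14 listed genes, had 12 genes above the median gene. ewg (erect wing), a transcription factor of flight muscle and neurons, was at 0.32 (-0.04 to 0.65). Directly inward, the 19.7 kb from Exp6 to CG3156 held 8 genes, of which 6 were below the median gene. CG3156 had 7 dBigH1 reads against 206 and a ratio of -1.72 (-3.05 to -0.65), and CG18273 had 18 against 319 and a ratio of -0.99 (-1.76 to -0.31). The interval lay wholly above the median gene for 2 of the 14 genes, against 17.9% of all genes. It lay wholly below for 2 of the 8, against 9.41% of all genes. Most of the 14 are nested in CG3777 or CG32816, so their values are not independent of those genes. By point ratio alone, mostly higher genes thus adjoined mostly lower ones within the X tip. These stretches were chosen after their values were seen.

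**Figure D2:**
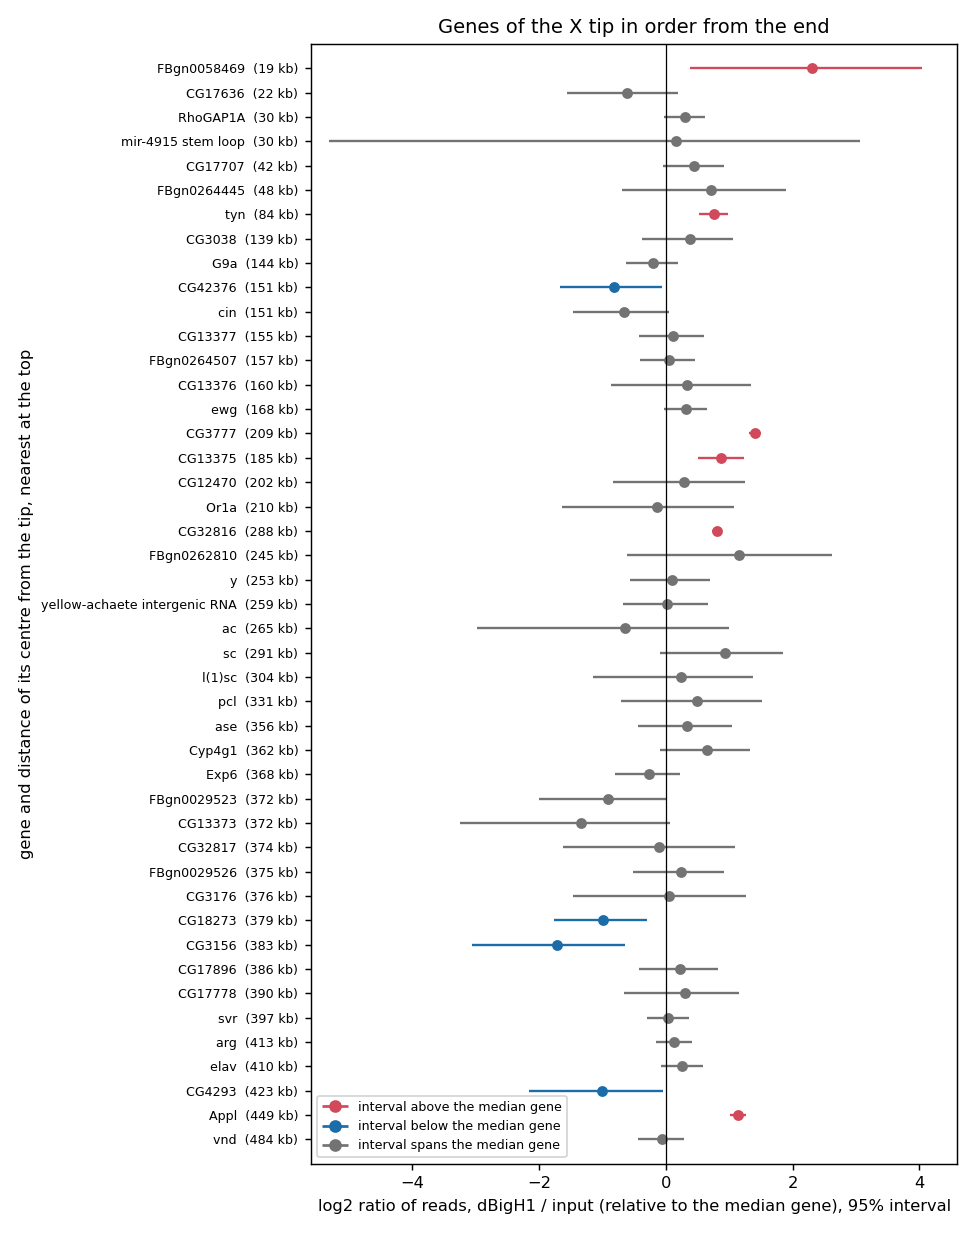
Read ratio (log2, dBigH1 over input, relative to the median gene) of the 45 X tip genes with 95% exact intervals, ordered from the end of the chromosome at the top. The narrow intervals of CG3777 at 1.40, CG32816 at 0.81 and Appl at 1.14 lie above 0, while those of the achaete-scute genes span it.

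Elsewhere in the X tip G9a, a histone H3 lysine 9 methyltransferase, was at -0.21 (55 dBigH1 reads against 568, -0.64 to 0.19). elav, an RNA-binding protein gene used as a marker of neurons, was at 0.26 (89 against 664, -0.08 to 0.58). svr, which encodes a carboxypeptidase, was at 0.04 (-0.30 to 0.36), and vnd, a homeodomain factor of the ventral nervous system, at -0.06 (-0.43 to 0.29). cin, a gene of molybdenum cofactor synthesis, was at -0.67 (-1.47 to 0.04) and CG42376, which covers nearly the same span, at -0.82 (-1.68 to -0.07). At this depth neither G9a, elav, svr nor vnd differed detectably from the median gene.

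On 2L the outermost genes alternated. The gene nearest the end, CG11023 (FBgn0031208, 7529 to 9484), annotated as a pseudogene in RefSeq Release 6, had 10 dBigH1 reads against 207 input reads and a ratio of -1.21 (-2.29 to -0.31). Its neighbour l(2)gl (FBgn0002121, 9839 to 21376), a tumour suppressor of epithelial polarity that lies next to the 2L telomere, had 173 dBigH1 reads against 1025 and a ratio of 0.59 (0.35 to 0.83). Ir21a, an ionotropic receptor gene of cool sensing, followed at -0.89 on 21 against 348 reads (-1.60 to -0.26). Next to it Cda5 (FBgn0051973, 25402 to 65404), a chitin deacetylase-like gene, had 781 dBigH1 reads against 4053 and a ratio of 0.78 (0.67 to 0.89). The intervals of these neighbours do not overlap, so neighbouring genes stood on opposite sides of the median gene.

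The other high 2L genes with at least 10 reads were FBgn0263871 on 13 against 58 reads (2.001-fold the median gene), CG11374 at 0.88 (0.25 to 1.46) and CG13694 at 0.77 (-0.00 to 1.47). The mir-965 stem loop, a microRNA precursor nested in kis, was at 2.90 on 5 dBigH1 reads against 6 (0.84 to 4.87). The 9 genes over 10 kb in this tip ran from -0.20 to 0.78. Among them spen (split ends), a transcriptional regulator that binds RNA and the widest of the tip, was at 0.46 on 716 against 4643 reads (0.35 to 0.58). Also among them, kis (kismet), a chromodomain remodeller of the trithorax group, was at 0.15 on 520 against 4182 (0.02 to 0.28). Among signalling genes, the Hippo pathway gene ex was at 0.17 (-0.02 to 0.37) and smo, the Hedgehog signal transducer, at -0.45 (-0.95 to 0.01). The homeodomain gene al was at 0.26 (-0.03 to 0.55) and the wing vein gene net at 0.34 (-0.06 to 0.71). Lowest of the tip was CG11601, with 5 dBigH1 reads against 217 and a ratio of -2.28 (-3.92 to -1.04), and CG11592 was at -0.94 (-1.83 to -0.17). The 19.9 kb from smo to Hop held 7 genes, all below the median gene, with a median of -0.76. Of these 3 had intervals wholly below it, against 7.59% elsewhere on 2L, where 1569 of 2885 genes were above the median gene. Several of the 7 overlap, and CG3625 outside its nested gene CG11592 was at 0.15 (-0.19 to 0.47). This stretch was chosen after its values were seen.

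The 3L tip had no long gene with a high ratio. Its 9 genes over 10 kb had a median of 0.17, against 0.36 for such genes elsewhere on 3L. They included Ptpmeg, a tyrosine phosphatase gene and the widest of the tip, at 0.22 on 380 dBigH1 reads against 2916 (0.06 to 0.37). trh (trachealess), a transcription factor of tracheal fate, was at 0.19 on 314 against 2464 (0.01 to 0.36), and E(bx), which encodes the largest subunit of the remodeller NURF, at 0.23 on 169 against 1286 (-0.01 to 0.46). Summed, the tip had 3408 dBigH1 reads against 30509 input reads and a ratio of -0.004 (-0.06 to 0.05), against 0.39 (0.38 to 0.39) for the rest of 3L. By this measure the 3L tip was further below its arm than the 2L tip, at 0.15 (0.11 to 0.18) against 0.39 (0.38 to 0.39), and the 3R tip, at 0.26 (0.22 to 0.30) against 0.28 (0.27 to 0.28).

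The methuselah family of G protein-coupled receptors, known for effects of mth on life span, had 5 genes in the 3L tip, a set chosen after its values were seen. mthl14 (FBgn0052476, 247491 to 250305) was the highest gene of the tip, with 56 dBigH1 reads against 216 and an RPKM of 6.94 in dBigH1 against 6.02 in input. Its read ratio was 1.21 (0.76 to 1.64). Next highest in the tip were FBgn0264720 at 1.16 on 20 against 80 reads (0.37 to 1.88) and FBgn0262681, nested in p130CAS, at 1.04 on 12 against 52 (0.002 to 1.97). The other methuselah genes ran from -0.31 to 0.33, and mthl9, mthl10 and mth are nested in Ptpmeg. mthl8 (22428 to 26308), the gene nearest the 3L end, had 11 dBigH1 reads against 122 input reads and a ratio of -0.31 (-1.35 to 0.58). Its RPKM was 0.99 in dBigH1 and 2.47 in input, the lowest input value of the tip, where the median was 8.96. Next in order, FBgn0262679 was at 0.28 (-0.58 to 1.03), and Lsp1gamma, a storage protein gene of the larval fat body, at -0.03 (-0.59 to 0.48).

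On 3L between 175112 and 225605, 15 of 17 genes from CG7049 to CG33229 were below the median gene and 6 had intervals wholly below it. Elsewhere on 3L 1516 of 2896 genes were above the median gene, and 8.63% had intervals wholly below it. Some genes of this stretch overlap, and the stretch was chosen after its values were seen. mri had 7 dBigH1 reads against 236 (-1.92, -3.25 to -0.85) and CG33229 had 7 against 235 (-1.91, -3.24 to -0.85). Mtch, a mitochondrial carrier homologue, was at -0.79 (-1.55 to -0.12), and CG16940, listed as Dis3l2 in RefSeq, at -0.67 (-1.26 to -0.12). The mitochondrial ribosomal protein gene mRpL17 was at -0.77 (-1.86 to 0.15), and CG42846, the lowest of the tip, at -2.75 on 1 dBigH1 read against 60 (-8.08 to -0.22).

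On 3R, heph (hephaestus), which encodes a polypyrimidine tract-binding protein needed for spermatid individualization, dominated the tip. This gene (FBgn0011224, 27672709 to 27819000) had 2342 dBigH1 reads against 13346 input reads, or 43.8% of the tip's dBigH1 reads and 33.5% of its input reads. Its read ratio was 0.65 (0.58 to 0.71), close to the median of 0.63 for genes of 60 kb or more outside the tips. CG2003, nested in heph, was at 0.42 (0.19 to 0.64), and kek6, a neuronal transmembrane receptor gene, at 0.50 on 558 against 3534 reads (0.36 to 0.62). Without heph the summed ratio of the 3R tip was 0.26 below that of the rest of the arm, against 0.02 below with it, so the summed value depended on 1 gene. The rest of 3R kept its 41 genes of 60 kb or more, so the value without heph is not a like comparison.

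The 3R genes of 10 kb or less were lower, with a median of -0.32 against -0.10 for such genes elsewhere on 3R, and 12 of these 42 (28.6%) were 1.5-fold or more below the median gene, against 17.3% of such genes elsewhere on 3R. nero, a deoxyhypusine hydroxylase gene nested in CG1910, had 1 dBigH1 read against 175 input reads, and its ratio of -4.29 (-9.60 to -1.80) was the lowest of all listed genes. CG1910 had 27 against 613 (-1.35, -1.96 to -0.79), and outside nero it was at -0.92 (-1.55 to -0.35). The 15.5 kb from CstF-50 to CG1910 held 8 genes, of which 7 were below the median gene and 4 had intervals wholly below it. Elsewhere on 3R 1708 of 3594 genes were above the median gene, and 9.63% had intervals wholly below it. The values of nero and CG1910 are not independent. awd, the nucleoside diphosphate kinase gene, was at -0.79 in this block (-1.95 to 0.18). A second low block, 20.4 kb from pygo to RpL6, held 6 genes that were all below the median gene, with a median of -0.89. The intervals of 4 of them lay wholly below it. Both blocks were chosen after their values were seen. Among the 6 genes of the second block, rod, a kinetochore checkpoint gene, was at -0.76 on 56 against 847 reads (-1.18 to -0.37). CG1774 was at -1.33 (-2.30 to -0.50), CG1638 at -1.03 (-2.05 to -0.16), and the Wnt pathway gene pygo at -0.23 (-0.67 to 0.19). Elsewhere in the tip CG2118 was at -0.78 (-1.37 to -0.24), CG2150 at 0.57 (-0.29 to 1.35) and the BTB zinc finger repressor gene ttk at 0.13 (-0.05 to 0.31). At the very end, Map205, a microtubule-associated protein gene, was at 0.26 (0.01 to 0.50), the nucleolar protein gene mod at 0.04 (-0.50 to 0.53) and the arrestin gene krz at 0.30 (-0.13 to 0.69).

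**Figure D3:**
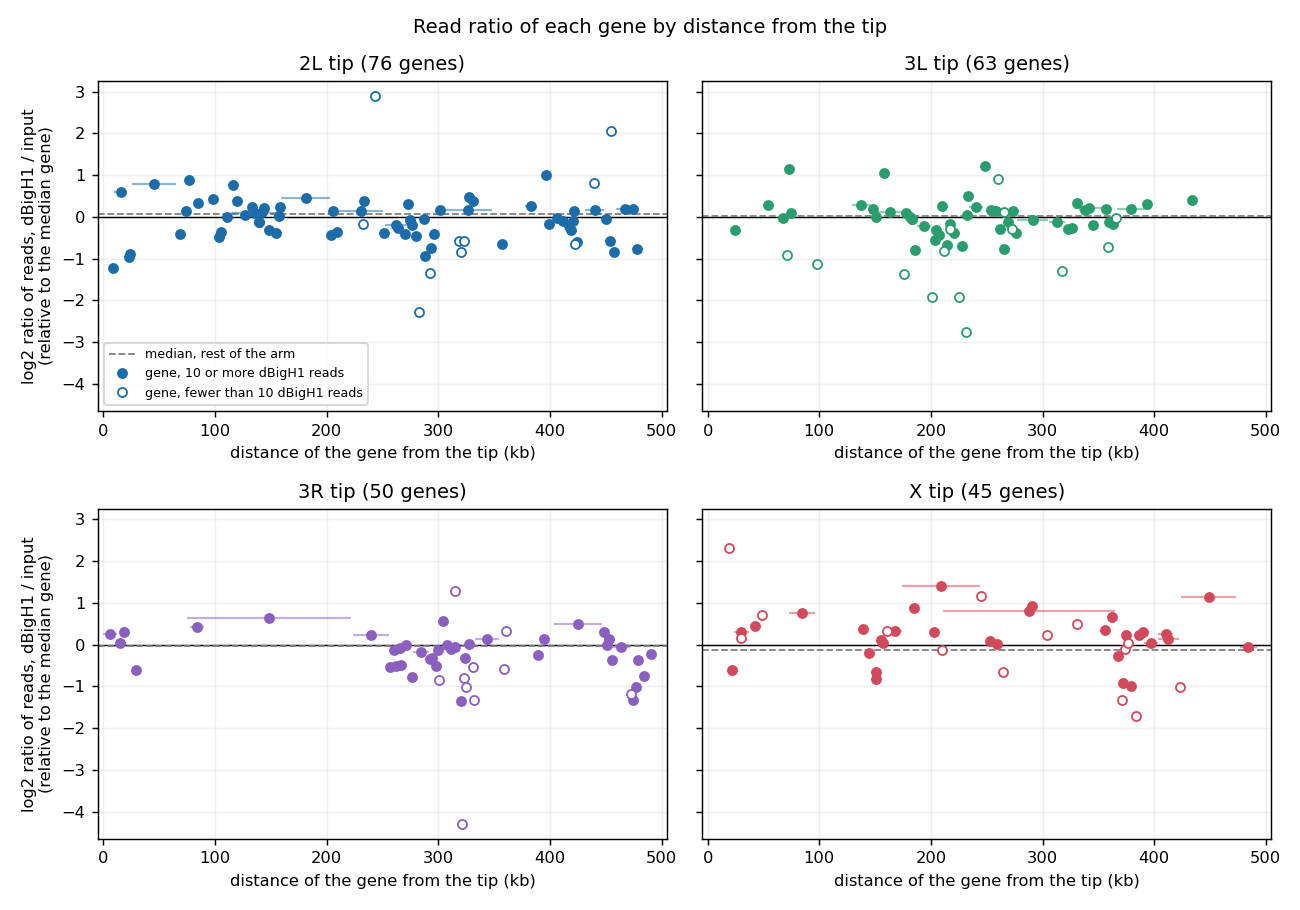
Read ratio (log2, dBigH1 over input, relative to the median gene) of each tip gene against the distance of its centre from the tip in kb, with a horizontal bar for the extent of the gene. Open points have fewer than 10 dBigH1 reads, and the dashed line is the median of the rest of the arm. CG3777 at 1.40 and nero at -4.29 stand out on X and 3R.

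Distance was counted from position 1 on 2L, 3L and X, and on 3R from the end of Map205, the last listed gene, at 27894162. Genes centred in the outermost 100 kb had a median width-matched difference above 0 in each tip. It was 0.27 on X (7 genes), 0.23 on 2L (10 genes), 0.17 on 3R (5 genes) and 0.08 on 3L (7 genes). Between 200 and 300 kb it was 0.32 on X (9 genes), but -0.31 on 2L (21 genes), -0.23 on 3L (28 genes) and -0.18 on 3R (13 genes). On 2L the outermost bin held 3 genes past 1.5-fold above the median gene and 3 past it below, so its median hides a wide spread. On 3L the outermost bin had a median read ratio of -0.03, with 3 of its 7 genes above the median gene. Across the genes of a tip, Spearman's rho between distance and read ratio was -0.25 on X, -0.23 on 3R, -0.10 on 2L and 0.10 on 3L. Over all 234 genes it was -0.13. Among the 31 X tip genes with at least 10 dBigH1 reads it was -0.03, so the X value rested on genes with few reads. These genes share 2 libraries, and many overlap, so the values are descriptions.

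The gene nearest the X end, FBgn0058469, was at 2.31, but on 5 dBigH1 reads against 9 (0.39 to 4.04). CG17636 followed at -0.62 (-1.55 to 0.19) and RhoGAP1A, a GTPase-activating protein gene, at 0.30 (-0.04 to 0.61), with the mir-4915 stem loop inside it at 0.16 on 1 read against 8 (-5.31 to 3.06). Of the 12 genes nearest the 4 ends, 3 on each, 7 were above the median gene. Their ratios showed no common side.

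Just inside and just outside the limits of the tips stood cbt at -0.76 and ush at 0.20 on 2L, CG13891 at 0.40 and CG34267 at 1.35 on 3L, pygo at -0.23 and gammaCop at -1.06 on 3R, and vnd at -0.06 and CG13366 at -0.12 on X.

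**Figure D4:**
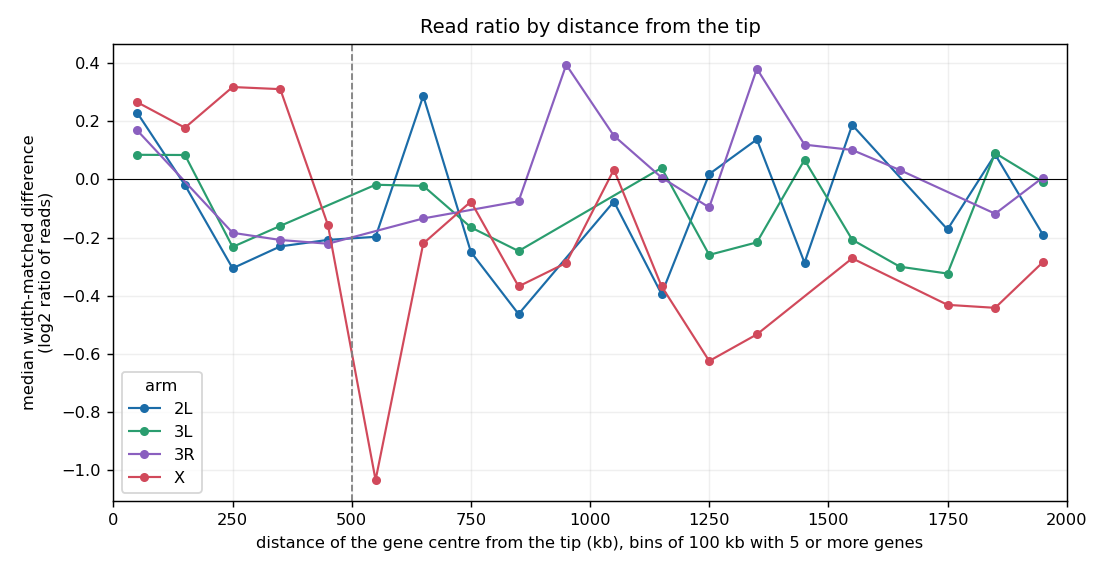
Median width-matched difference (log2 ratio of reads, dBigH1 over input) in bins of 100 kb by distance of the gene centre from the tip, for bins with 5 or more genes, out to 2000 kb. The dashed line marks 500 kb. The X line is above 0 in the outermost 400 kb and at -1.03 between 500 and 600 kb.

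The X tip stood far from the sequence next to it, and the order of the medians was tip above neighbour. The following 500 kb of X, with 56 genes, had a median read ratio of -0.71, against 0.22 in the tip. Of its genes 33 (58.9%) were 1.5-fold or more below the median gene, against 9 of 45 in the tip and 27.7% over X outside the tip. Of the genes of this stretch 29 had fewer than 10 dBigH1 reads, against 14 in the tip, so single genes are imprecise there. Median RPKM in the X tip was 2.41 in dBigH1 and 4.16 in input, and in the next 500 kb it was 1.55 in dBigH1 and 5.16 in input. Both libraries thus contributed to the difference. On the autosomal arms the next 500 kb was closer to the tip, with medians of -0.28 on 2L, -0.02 on 3L and -0.04 on 3R.

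Windows of 500 kb with at least 10 genes show how far such medians move along each arm. By the median read ratio the X tip was 2nd highest of 45 windows, and its neighbour was the lowest. By the width-matched difference, 4 of the other 44 X windows stood above the tip, and they ranged from -0.38 to 0.41. The 2L tip was 5th lowest of 46 windows by that measure, the 3L tip 2nd lowest of 47 and the 3R tip 2nd lowest of 56. Other windows ranged from -0.29 to 1.08 on 2L, from -0.22 to 0.69 on 3L and from -0.20 to 0.19 on 3R. All 4 tips therefore lay within the range of the other windows of their arms. The highest of these windows on 2L (starting 21.5 Mb from the tip, with 76 genes) and 3L (starting 23.0 Mb from the tip, with 12 genes) lay at the opposite, centromere-proximal end. Further in on 3L, 2 windows left out for holding 4 genes each were higher still, at 1.203 and 1.383.

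**Figure D5:**
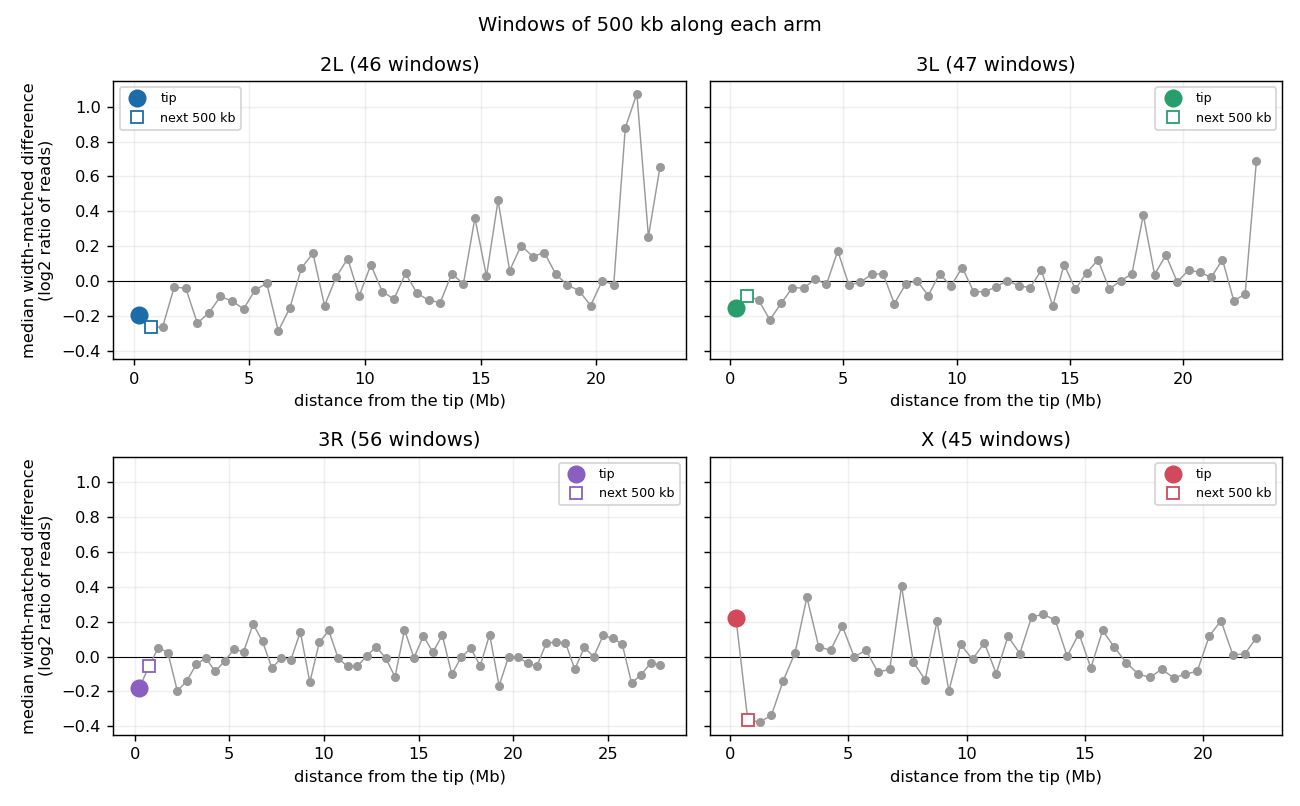
Median width-matched difference (log2 ratio of reads, dBigH1 over input) in successive windows of 500 kb with at least 10 genes, against distance from the tip in Mb. The filled point is the tip and the square the next 500 kb. On X these are at 0.22 and -0.36, and on 2L, 3L and 3R the tip lies at -0.20, -0.16 and -0.18.

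Grouped by function, 10 transcription and chromatin regulators (net, al, kis, ewg, vnd, E(bx), trh, ttk, pygo and mod) had a median of 0.17, from -0.23 to 0.34, and none passed 1.5-fold on either side. Set against genes of the same arm and width their median was -0.14. The 5 growth and polarity genes (l(2)gl, ex, smo, krz and RhoGAP1A) had a median of 0.30, and 0.19 against genes of the same arm and width. Of these l(2)gl was the only one past 1.5-fold, on the higher side. Of 5 genes listed as neuronal, Appl and heph were past 1.5-fold on the higher side and none on the lower, and the median was 0.26. Against genes of the same arm and width the median was 0.17. Both Appl and heph are long. Past 1.5-fold on the higher side were 16.2% of all listed genes and 56.5% of genes of 60 kb or more outside the tips. In that list Map205 and heph are not specific to neurons. The 3 chemoreceptor genes, Ir21a, Ir100a and Or1a, had a median of -0.48 and were all below the median gene. Their median against genes of the same arm and width was -0.30. Ir100a was at -0.48 on 15 against 187 reads (-1.35 to 0.28). The 3 microRNA stem loops rested on 1 to 5 dBigH1 reads, with mir-1014 at 1.28 (-1.20 to 3.20), so their order cannot be read.

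Features that the rule did not use differed among the tips. Over all tip genes the median width was 2547 bp, against 1918 bp in the rest of the 4 arms, and 55.6% overlapped another gene, against 41.3%. Overlap was most frequent in the X tip, 64.4% against 38.5% elsewhere on X, and the 2L tip, 63.2% against 42.6% elsewhere on 2L. In the 3L tip it was 50.8% against 42.8%, and in the 3R tip 42.0% against 40.9%, close to the arm. Median width was 2547 bp against 1686 bp on 2L, but 1979 bp against 1871 bp on 3L. Median input RPKM was 8.90 in the 3 autosomal tips against 8.56 elsewhere on those arms, and 4.16 in the X tip against 4.75 elsewhere on X. Median dBigH1 RPKM was 4.06 in the autosomal tips against 4.27 elsewhere on those arms, and 2.41 in the X tip against 2.154 elsewhere on X. Both libraries thus differed in the direction of the read ratio, with less dBigH1 and more input in the autosomal tips, and more dBigH1 and less input in the X tip. Across the 234 tip genes Spearman's rho between input RPKM and read ratio was -0.43. The input value is the denominator of the ratio, so the pair is not independent, and the part of the input level in the differences between tips was not tested.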

How the data were processed

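Chromatin immunoprecipitated with an antibody against dBigH1 and input DNA, 1 library each, were sequenced from whole testes of adult w1118 males. Bowtie2, CASAVA 1.9, R 2.15 and FastQC 0.10 are named in the submitters' processing notes, with build dm3 and no order or role. The counting rule for genes and the handling of multiply mapping reads were not stated in those notes or the labels. Per the file headers, the authors deposited log2 RPKM values. After exponentiating and subtracting 1, 100% of values in both libraries were whole reads within 0.01 read, so they were read as log2(RPKM + 1). The authors' MAnorm column, although headed as a log2 fold change, had an SD of 0.999 and was treated as a standardized score in an alternative. No gene was listed with 0 reads in either library.

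Reads were recovered from the RPKM values, and medians, width-matched differences, windows and intervals were computed in Python 3.11.15 with pandas 2.3.3 and scipy 1.17.1. Functions were tested on simulated data. Width classes were deciles of gene width among the other genes of the arm. Without replicates no p-value was computed. Alternatives covered pseudocounts, filters, overlapping genes, tip extent, width matching and summaries. Genes were named by rule as the 3 nearest each end, the widest, the 4 highest and 4 lowest ratios with at least 10 dBigH1 reads, the extremes with fewer reads, and members of 6 lists. Other genes and stretches were chosen after their values were seen. Members and lists were chosen with earlier results of these data known. Of the tip genes, 203 matched a RefSeq Release 6 table by Entrez ID, which was used for names only.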

Additional observations from a re-analysis of the deposited data

How the results depend on the processing

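No paired analysis was possible because each group had 1 library. Width-matched median differences were -0.11 over all tip genes, -0.20 on 2L, -0.16 on 3L, -0.18 on 3R and 0.22 on X. With a tip of 250 kb they became 0.079 over all tips, 0.061 on 2L and 0.17 on 3R, and with a tip of 1 Mb -0.15 on X. Among genes with at least 10 dBigH1 reads that overlap no other the X tip was at -0.20. That alternative, the sums without 1 gene, the restriction to genes of 10 kb or less and those on named genes were chosen after seeing the data. On 2L the value moved to -0.35 on the MAnorm score and to -0.31 with summed reads without Cda5. On 3L it moved to -0.39 with summed reads and to -0.42 with summed reads without Ptpmeg. In the sums without 1 gene, the gene was left out of the tip and none out of the rest of the arm. The other alternatives kept the direction of each tip, within -0.29 to 0.36 over 2L, 3L, 3R and X. Sizes varied, and with at least 10 dBigH1 reads X was at 0.09, 2L at -0.24, 3L at -0.14 and 3R at -0.13. On 3R the value was -0.02 among genes with at least 10 dBigH1 reads that overlap no other, and -0.02 with summed reads. The 24 genes at least 1.5-fold above the median gene became 8 with a pseudocount of 5, 53 on the MAnorm score, 15 with at least 10 dBigH1 reads, 9 without overlapping genes and 11 at 2-fold. The 48 genes below became 10 with a pseudocount of 5, 27 with at least 10 dBigH1 reads, 24 without overlapping genes and 19 at 2-fold. The read minimum and the overlap filter leave fewer genes, and a pseudocount of 5 shrinks ratios. The MAnorm column was treated as a standardized score (SD 0.999), not a log2 ratio. Counts and moves on the MAnorm score, here and below, are thus on another scale than the 1.5-fold limit and the intervals. For the other moves the cause was not tested. Of 74 named genes, 25 moved beyond their interval on the MAnorm score, 5 with log2(RPKM + 1) and 2 with centring on the arm. The sign changed for 6 of them on the MAnorm score, for 3 with log2(RPKM + 1) and for 1 with centring. Of these only ac was past 1.5-fold, at -0.65 against 0.43 on the MAnorm score, and the interval of each spans the median gene. Counting depth limits genes with few dBigH1 reads.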
